A study of Mus musculus with 7 samples.

Results

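The 6 glutamate receptor genes Grin2a, Grin2b, Gria1, Gria2, Grik2 and Grm7 were described by the 5-hydroxymethylcytosine (5hmC) signal over their gene bodies in mouse hippocampus. They were chosen by name, as a span of the mm9 build for each gene: Grin2a at chr16:9577000-9996000, Grin2b at chr6:135663000-136123000, Gria1 at chr11:56825000-57144000, Gria2 at chr3:80485000-80607000, Grik2 at chr10:48819000-49509000 and Grm7 at chr6:110595000-111518000. The spans cover 2933 kb, from 122 kb for Gria2 to 923 kb for Grm7, and hold 5866 of the 5451548 consecutive 500 bp bins in which reads were counted. No mm9 annotation was used here, so the edges of the spans are those of the rule, and exons, introns and UTRs inside them are not named. Genomic DNA of whole hippocampus of unstressed C57BL/6 mice was captured by an anti-5hmC antibody and then sequenced. The 3 wild-type libraries (WT, replicates 1 to 3) were compared with 4 libraries of Tet2 conditional knockout mice (Tet2 CKO, replicates 1 to 4). The Cre driver of the knockout, the floxed exons, and the age and sex of the mice are not given in the sources used here, and the deletion in Tet2 was not checked here. Nothing in the labels ties each library to an animal of its own, so the p-values below refer to variation among libraries, part of which may be technical.

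Glutamate is the main excitatory transmitter of the hippocampus, and its receptors fall into ligand-gated channels and G-protein-coupled receptors. The NMDA receptors hold glycine-binding subunits and glutamate-binding GluN2 subunits, of which Grin2a and Grin2b encode GluN2A and GluN2B, and they pass the calcium that triggers synaptic plasticity. The AMPA receptors carry most fast excitatory current, and of their subunits GluA1 (Gria1) is moved into synapses during potentiation while GluA2 (Gria2) keeps the channel closed to calcium once its transcript is edited. Grik2 encodes GluK2, a kainate receptor subunit found at mossy fibre synapses, and Grm7 encodes mGlu7, a presynaptic metabotropic receptor that lowers transmitter release. 5hmC is made from 5-methylcytosine by the TET dioxygenases, of which Tet2 encodes one. In neurons it is known to be abundant over the bodies of expressed genes and scarce at CpG-rich promoters.

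Because the signal at the gene starts is one of the measures below, the sequence just upstream is shown for the members that RefSeq promoter windows (build GRCm38.p6) held, which were 3 of 6 genes. Each window is the 250 bases before the annotated start, 5′ to 3′ on the strand of the gene, with every CG dinucleotide, the usual site of 5-methylcytosine and 5hmC, in capitals. The motif CG reads the same on both strands. The Gria2 window lies at chr3:80802836-80803085 on the minus strand, the Grik2 window at chr10:49788755-49789004 on the minus strand, and the Grm7 window, the first of 2 listed, at chr6:110645262-110645511 on the plus strand, all in GRCm38.p6 and not in mm9.
Gria2: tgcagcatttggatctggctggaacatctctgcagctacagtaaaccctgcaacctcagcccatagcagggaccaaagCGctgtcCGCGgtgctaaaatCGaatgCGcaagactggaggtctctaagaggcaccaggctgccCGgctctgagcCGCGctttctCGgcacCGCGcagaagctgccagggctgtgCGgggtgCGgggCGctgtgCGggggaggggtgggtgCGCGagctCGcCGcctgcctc
Grik2: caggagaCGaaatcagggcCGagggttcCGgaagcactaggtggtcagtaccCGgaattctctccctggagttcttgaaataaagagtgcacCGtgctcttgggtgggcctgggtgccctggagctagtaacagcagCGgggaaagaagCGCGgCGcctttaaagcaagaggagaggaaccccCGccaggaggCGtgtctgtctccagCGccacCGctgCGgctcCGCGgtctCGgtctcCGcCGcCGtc
Grm7: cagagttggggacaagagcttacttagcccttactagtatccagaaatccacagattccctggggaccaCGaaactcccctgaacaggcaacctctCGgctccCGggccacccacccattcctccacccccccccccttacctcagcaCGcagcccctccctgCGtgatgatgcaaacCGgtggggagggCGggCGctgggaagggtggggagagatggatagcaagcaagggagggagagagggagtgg
Gria2 held 19 CG and Grik2 20, in clusters toward the start, and Grm7 held 8. Of 32851 mouse promoter windows of the same length, 19.7% held at least 19 CG, 17.9% at least 20 and 43.0% at least 8, with a median of 6. The counts describe the letters in these windows only.

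The libraries held 26134505 to 49414761 reads. A set of 375 bins with a mean of over 100 reads, the high-count bins, took 69.8% and 74.1% of the reads of Tet2 CKO replicates 2 and 3, 29.8% in WT replicate 1 and 49.6% to 54.3% in the other 4 libraries. None of these bins lies in the 6 spans. Tet2 CKO replicates 2 and 3 stood apart from the other 5 libraries across the genome, and WT replicate 1 did so to a smaller degree, so differences between genotypes are also given without Tet2 CKO replicates 2 and 3, and some of them without WT replicate 1. No input library was analysed here, so values are not corrected for background.

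Levels were computed here as RPKM, the reads of a span scaled by its length in kb and by the depth of the library, with the reads outside the high-count bins taken as depth. This scale compares genes of different length within a library. The 2 NMDA receptor genes had about the same level in WT as in Tet2 CKO replicates 1 and 4, and a lower one in Tet2 CKO replicates 2 and 3. Counting error of a span was 1.24% to 4.74% of its reads in any library. Grin2a stood at 0.379, 0.376 and 0.406 in WT replicates 1 to 3, and at 0.419, 0.240, 0.209 and 0.438 in Tet2 CKO replicates 1 to 4. The level of Grin2b was 0.478, 0.439 and 0.419 in WT, against 0.458, 0.191, 0.182 and 0.480 in Tet2 CKO. In both genes Tet2 CKO replicates 2 and 3 lay below every other library, while replicates 1 and 4 lay above all WT libraries in Grin2a and among or just above them in Grin2b. In raw reads, Grin2b had 1040 and 1073 in these 2 libraries and 2547 to 6474 in the other 5. The mean level of Grin2b over the 3 WT libraries was 0.445 ± 0.0298 (SD, n = 3), and that over the 4 Tet2 CKO libraries 0.328 ± 0.163 (SD, n = 4). In whole tissue a smaller share of cells that carry 5hmC over a gene and less 5hmC per cell cannot be told apart.

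The AMPA receptor genes differed from each other. Gria1 followed the NMDA receptor genes, with levels of 0.399, 0.378 and 0.408 in WT and of 0.450, 0.174, 0.201 and 0.418 in Tet2 CKO. Tet2 CKO replicates 2 and 3 were again the lowest libraries, at 656 and 823 reads against 1520 to 3747. Gria2, the shortest span, had 0.195, 0.321 and 0.283 in WT and 0.304, 0.308, 0.334 and 0.341 in Tet2 CKO. Here the low library was WT replicate 1, the 4 Tet2 CKO libraries lay within 0.304 to 0.341, and the groups overlapped.

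In Grik2 and Grm7 the place of Tet2 CKO replicates 2 and 3 was the reverse of that in Grin2a, Grin2b and Gria1. The level of Grik2 was 0.161, 0.275 and 0.292 in WT, and 0.295, 0.415, 0.394 and 0.306 in Tet2 CKO. Every Tet2 CKO library lay above every WT library, the nearest values being 0.295 and 0.292, and such a separation was found in 3.71% of 5155 windows of 500 kb. The group means were 0.243 ± 0.0711 (SD, n = 3) and 0.352 ± 0.0611 (SD, n = 4). Grm7 had 0.167, 0.302 and 0.322 in WT against 0.305, 0.431, 0.442 and 0.292 in Tet2 CKO. Tet2 CKO replicates 2 and 3 were the highest and WT replicate 1 the lowest in both genes, while Tet2 CKO replicates 1 and 4 lay close to WT replicates 2 and 3. The share of reads in high-count bins, lowest in WT replicate 1 and highest in Tet2 CKO replicates 2 and 3, moved with these levels, and its part in them was not tested.

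**Figure D1:**
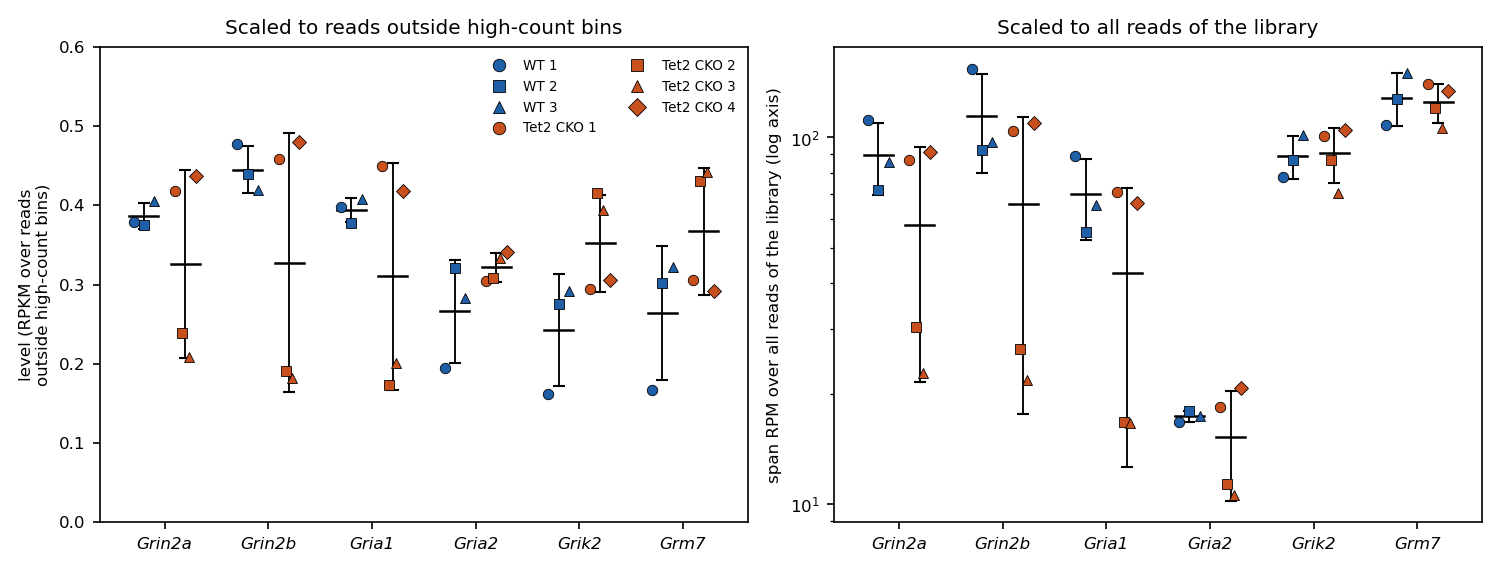
Signal over each gene span by library, as the level in RPKM over reads outside high-count bins (left, linear axis) and as RPM over all reads of the library (right, log axis). Points are libraries, bars the group mean and whiskers the SD. Tet2 CKO replicates 2 and 3 are the lowest points for Grin2a, Grin2b and Gria1 in both panels, and for Gria2 in the right panel only. They are the highest for Grik2 and Grm7 in the left panel only.

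On the scale of all reads of a library, the high-count bins count too. There the picture for Gria2, Grik2 and Grm7 changed and that for Grin2a, Grin2b and Gria1 did not. In RPM, reads scaled by the total alone, Grik2 took 78.2, 86.9 and 102 in WT and 101, 86.6, 70.5 and 105 in Tet2 CKO. Grm7 took 108, 128 and 150 in WT and 140, 120, 106 and 134 in Tet2 CKO. On this scale Tet2 CKO replicates 2 and 3 no longer lay above the rest for either gene. Tet2 CKO replicate 3 was the lowest library for both. For Gria2, Tet2 CKO replicates 2 and 3 became the lowest, at 11.3 and 10.6 RPM against 16.7 to 20.7 in the other 5 libraries. For Grin2b they took 26.5 and 21.7 RPM, against 92.4 to 154 in the other 5 libraries, and for Gria1 16.7 and 16.7 against 55.2 to 89.2.

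Set among 4820 autosomal windows of 500 kb, the genes changed place between libraries. In the other 5 libraries Grin2a, Grin2b and Gria1 lay between the 50.4th and 74.7th percentile of levels. In Tet2 CKO replicates 2 and 3 they lay at the 10.9th and 4.27th percentile for Grin2a, at the 2.12th and 1.12th for Grin2b and at the 0.954th and 3.30th for Gria1. Grik2 lay at the 16.02nd to 26.0th percentile in those 5 libraries and at the 63.3rd and 58.2nd in Tet2 CKO replicates 2 and 3. Grm7 stood at the 18.9th to 30.04th percentile in the 5 libraries and at the 66.6th and 69.4th in the other 2. The median window had a level of 0.325 to 0.382 in every library.

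The order of the 6 genes was not the same in every library. Grin2b was the highest in all 3 WT libraries and in Tet2 CKO replicates 1 and 4, where the highest gene stood 1.48 to 2.96 times above the lowest. Grm7 was the highest in Tet2 CKO replicates 2 and 3, followed by Grik2 and Gria2. Neighbours in the order lay close: Grin2a was above Gria1 in 3 of 7 libraries, and Gria2 above Grik2 in 4 of 7. The ratio of Grin2b to Grm7, taken within each library, was 2.86, 1.45 and 1.30 in WT and 1.5004, 0.443, 0.412 and 1.65 in Tet2 CKO. This ratio does not depend on how libraries are scaled, and only Tet2 CKO replicates 2 and 3 had it below 1. Over the 7 libraries, Grik2 and Grm7 were the pair of genes most alike in log2 level (Pearson r = 0.986, n = 7) and Grin2b and Grm7 the least (r = -0.764, n = 7). Both coefficients describe libraries that share the contrast of Tet2 CKO replicates 2 and 3 with the rest.

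The genotypes were compared by edgeR's quasi-likelihood test on the raw span counts, fitted together with all 500 kb windows of the genome. Of the 6 genes, 0 had a Benjamini-Hochberg adjusted p under 0.05, and the same was true of 0% of the 5161 rows tested. The log2 fold change of Tet2 CKO over WT was -0.33 ± 0.29 (SE) for Grin2a, -0.53 ± 0.39 for Grin2b and -0.43 ± 0.36 for Gria1, with adjusted p of 0.350, 0.275 and 0.329 in edgeR. It was 0.21 ± 0.20 for Gria2, 0.47 ± 0.21 for Grik2 and 0.42 ± 0.28 for Grm7, with adjusted p of 0.380, 0.217 and 0.245 in edgeR. At an unadjusted p under 0.05 edgeR also called none of the genes, where 7.38% of all rows passed, and the nearest was Grik2 (edgeR, unadjusted p = 0.0583). DESeq2's Wald test passed Grik2 alone at an unadjusted p of 0.0266, where 37.0% of all rows passed, and none after adjustment, as 0% of all rows (adjusted p = 0.134 for Grik2). The fold changes of the 6 genes lay between the 19.4th and 71.7th percentile of those of all 500 kb windows.

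Without Tet2 CKO replicates 2 and 3 the log2 fold changes in edgeR were 0.074 for Grin2a, -0.0054 for Grin2b and 0.062 for Gria1, so the lower values of these genes in Tet2 CKO rested on those 2 libraries. They were 0.23 for Gria2, 0.26 for Grik2 and 0.13 for Grm7, with adjusted p of at least 0.959 for all 6 genes. Single libraries also moved the values by over 1.5 times. Without WT replicate 1 the log2 fold change was 0.082 for Gria2, 0.30 for Grik2 and 0.22 for Grm7, and without WT replicate 2 it was 0.33 for Gria2. Leaving out Tet2 CKO replicate 2 or 3 gave -0.20 and -0.16 for Grin2a, -0.34 and -0.33 for Grin2b, and -0.23 and -0.26 for Gria1. Grin2a moved to -0.50 without Tet2 CKO replicate 4 and Gria1 to -0.67 without Tet2 CKO replicate 1. No gene passed in any fit that left out 1 library, at adjusted p from 0.123 to 0.713 in edgeR. With the replicate number as a block, which leaves out Tet2 CKO replicate 4, edgeR called 5 of 6 genes, Gria2 being the exception, where 81.8% of all rows were called. In that fit the log2 fold change was -0.57 for Grin2a, -0.90 for Grin2b, -0.73 for Gria1, 0.54 for Grik2 and 0.53 for Grm7, with adjusted p of 0.00391, 0.000435, 0.00345, 0.000753 and 0.00160 in edgeR. The share of genes called was near that of the genome as a whole, and whether the numbers mark pairs is not known.

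The signal of each gene was next set against its own surroundings, as the read density in the span over that in the 300 kb on either side. The ratio is taken within a library. Grin2a stood at 1.12, 1.00 and 1.03 times its flanks in WT and at 1.15, 0.664, 0.617 and 1.21 in Tet2 CKO. For Grin2b the ratios were 1.04, 1.07 and 0.909 in WT and 1.06, 0.625, 0.625 and 1.08 in Tet2 CKO. Gria1 had the lowest ratios, at 0.939, 0.909 and 0.856 in WT and 0.957, 0.441, 0.517 and 0.957 in Tet2 CKO. In these 3 genes the span lay below its flanks in Tet2 CKO replicates 2 and 3 by more than in any other library.

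The same held for Gria2 and Grik2, although their levels were not the lowest there. The ratio for Gria2 was 1.14, 1.07 and 0.989 in WT and 0.982, 0.722, 0.733 and 1.23 in Tet2 CKO. For Grik2 it was 0.968, 0.936 and 0.854 in WT and 1.01, 0.663, 0.614 and 0.949 in Tet2 CKO. Around Grik2 the flanks themselves had a level of 0.627 and 0.642 in Tet2 CKO replicates 2 and 3, against 0.167 to 0.342 in the other libraries. Grm7 was the exception, with ratios of 1.09, 1.16 and 1.14 in WT and 1.12, 1.12, 1.31 and 1.07 in Tet2 CKO, above its 300 kb flanks in all 7 libraries. Over autosomal 500 kb windows the median absolute log2 of this ratio was 0.276 and 0.268 in Tet2 CKO replicates 2 and 3. It was 0.146 to 0.231 in the rest. The share of windows where those 2 libraries lie below all others was not computed, so this order cannot be called particular to these genes. RefSeq (GRCm38.p6) listed no other coding gene within the flank length of Grik2 and Grm7, and 2 or 3 around each of the other 4 genes.

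**Figure D2:**
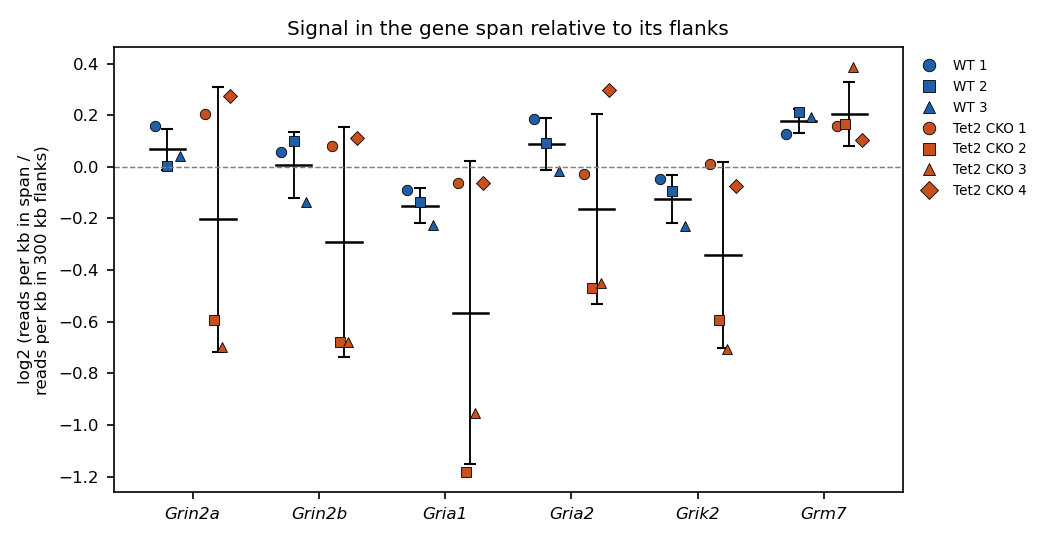
Log2 of read density in each gene span over that in the 300 kb flanks on either side, by library; points are libraries, bars the group mean and whiskers the SD, and the dashed line marks equal density. Tet2 CKO replicates 2 and 3 lie below all other libraries for every gene but Grm7, which lies above its flanks in all 7 libraries. How often other regions of the genome show this order was not computed.

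The difference between genotypes in the log2 ratio did not exceed the spread between libraries for any gene. The Tet2 CKO mean minus the WT mean was -0.27 for Grin2a, -0.30 for Grin2b, -0.41 for Gria1, -0.25 for Gria2, -0.22 for Grik2 and 0.026 for Grm7, with exact permutation p from 0.314 to 0.886 (two-sided, over all 35 ways to form groups of 3 and 4 libraries, smallest possible 0.0286). Thus 0 of 6 genes passed, against 2.6% of all 500 kb windows. Without Tet2 CKO replicates 2 and 3 the differences were 0.17, 0.089, 0.087, 0.048, 0.090 and -0.047 in the same order, each of the opposite sign. Without WT replicate 1 alone that of Grm7 was 0.00020. Flank length mattered for Grin2a, Gria2 and Grm7. With 100 kb flanks Tet2 CKO replicates 2 and 3 no longer lay below the other libraries in either gene, and with 1000 kb flanks they did so in Gria2 but not in Grin2a. With 1000 kb flanks Grm7 lay below its flanks in WT replicate 1 and Tet2 CKO replicate 4, at log2 ratios of -0.47 and -0.10, and in the other 5 libraries at 0.012 to 0.22.

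At the 5′ end, the first 10 kb of the span was compared with the whole span in the same library, with 1 read added to the end. The ends of Gria2, Grm7 and Grin2b were below the span mean in all 7 libraries. The end of Gria2 stood at 0.453, 0.346 and 0.569 of its span in WT and at 0.0761, 0.384, 0.397 and 0.569 in Tet2 CKO. It rested on few reads, from 2 (exact Poisson 95% interval 0.242 to 7.22, counting error only) in Tet2 CKO replicate 1 to 27 in replicate 4. Grin2b ran from 0.159 to 0.885 and showed no order by genotype. The end of Gria1 was near its span mean in 6 libraries, at 0.892 to 1.12, and at 0.340 with 6 reads in Tet2 CKO replicate 2.

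The groups did not overlap in Grm7 and Grin2a, in opposite directions. Among 500 kb windows, the same was seen with Tet2 CKO below WT in 5.51% and with Tet2 CKO above WT in 3.72%. For Grm7 the 5′ end held 41, 33 and 31 reads in WT and 7, 5, 17 and 25 in Tet2 CKO, which gave 0.855, 0.893 and 0.665 of the span density in WT and 0.202, 0.117, 0.318 and 0.619 in Tet2 CKO. All 4 Tet2 CKO libraries were lower than all WT libraries, and the nearest values were 0.619 and 0.665. Those rest on 25 and 31 reads, with exact Poisson 95% intervals of 16.2 to 36.9 and 21.1 to 44.0 (counting error only), which overlap. For Grin2a the end stood at 0.726, 0.782 and 0.809 in WT and at 1.22, 0.916, 0.859 and 1.19 in Tet2 CKO, again without overlap. It held 80, 36 and 48 reads in WT and 65, 25, 22 and 74 in Tet2 CKO. The 22 reads had an exact Poisson 95% interval of 13.8 to 33.3, so counting error exceeds the gap between the nearest values, 0.859 and 0.809. In log2 the difference was -1.61 for Grm7 (exact permutation test, two-sided, p = 0.0571) and 0.42 for Grin2a (exact permutation p = 0.0571), so neither passed. The end of Grik2 was 1.62, 0.692 and 0.779 in WT and 0.367, 0.183, 0.376 and 0.726 in Tet2 CKO, which overlapped (exact permutation p = 0.0857).

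For the other 3 genes the exact permutation p at the 5′ end was at least 0.629, and 0 of 6 genes passed 0.05, where 3.28% of the first 10 kb of all 500 kb windows did. With a 5 kb end Grm7 reached the smallest p that the design allows (log2 difference -1.57, exact permutation p = 0.0286), as 1 of 6 genes, where 3.3% of all 500 kb windows passed with such an end. Leaving out Tet2 CKO replicates 2 and 3 left a log2 difference of -1.17 for Grm7, of -0.89 for Grik2, where it was -1.38 with all libraries, and of 0.64 for Grin2a, in the same directions. The difference was -0.65 for Gria2 and -0.40 for Gria1, and it was -0.012 for Gria2 without Tet2 CKO replicate 1 and -0.0048 for Gria1 without Tet2 CKO replicate 2. Without Tet2 CKO replicates 2 and 3 it was -1.10 for Gria2 and -0.067 for Gria1. For Grin2b it was -0.88 without those libraries and -0.17 with all. The 5′ ends of the spans come from the rule and were not checked against an mm9 annotation, so how far the first 10 kb reaches past the promoter windows shown above is not known here.

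Along the gene, the signal was read in 10 equal segments numbered from the 5′ end, each divided by the mean of its span. Grm7 had a pattern that recurred in all 7 libraries, with segment 9 at 1.40 to 2.62 times the mean, segment 5 at 1.16 to 1.54 and segments 1, 2 and 4 at 0.460 to 0.916. In Grik2, segment 6 was above the mean in all libraries at 1.21 to 1.74, and segment 10 below it at 0.482 to 0.966. Grin2a kept segment 9 at 0.653 to 0.898, and Grin2b segment 1 at 0.635 to 0.795, in every library. Segment 2 of Gria1 lay at 0.410 to 0.912 and segment 1 of Gria2 at 0.299 to 0.796, while segment 1 of Gria1 ran from 0.756 to 1.34.

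In each of the 6 genes, Tet2 CKO replicates 2 and 3 stood higher in at least 1 segment than any other library. In the AMPA receptor genes these were segment 6 of Gria1 and segment 5 of Gria2, both above the span mean in 6 of 7 libraries. Segment 6 of Gria1 stood at 2.86 and 2.51 in them, against 0.992 to 1.46 in the other 5 libraries. Segment 5 of Gria2 stood at 3.77 and 3.58, against 0.634 to 1.97, and the next segment at 0.0877 and 0.1496, against 0.641 to 1.16. In Grm7 segment 9 stood at 2.62 and 2.35 in them, where the others had 1.40 to 1.65, and segment 8 at 0.372 and 0.328, where the others had 0.802 to 1.01. Segment values of 1 library share the reads of that library and are given as a description. How often other regions of the genome have a segment where these 2 libraries stand highest was not computed.

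**Figure D3:**
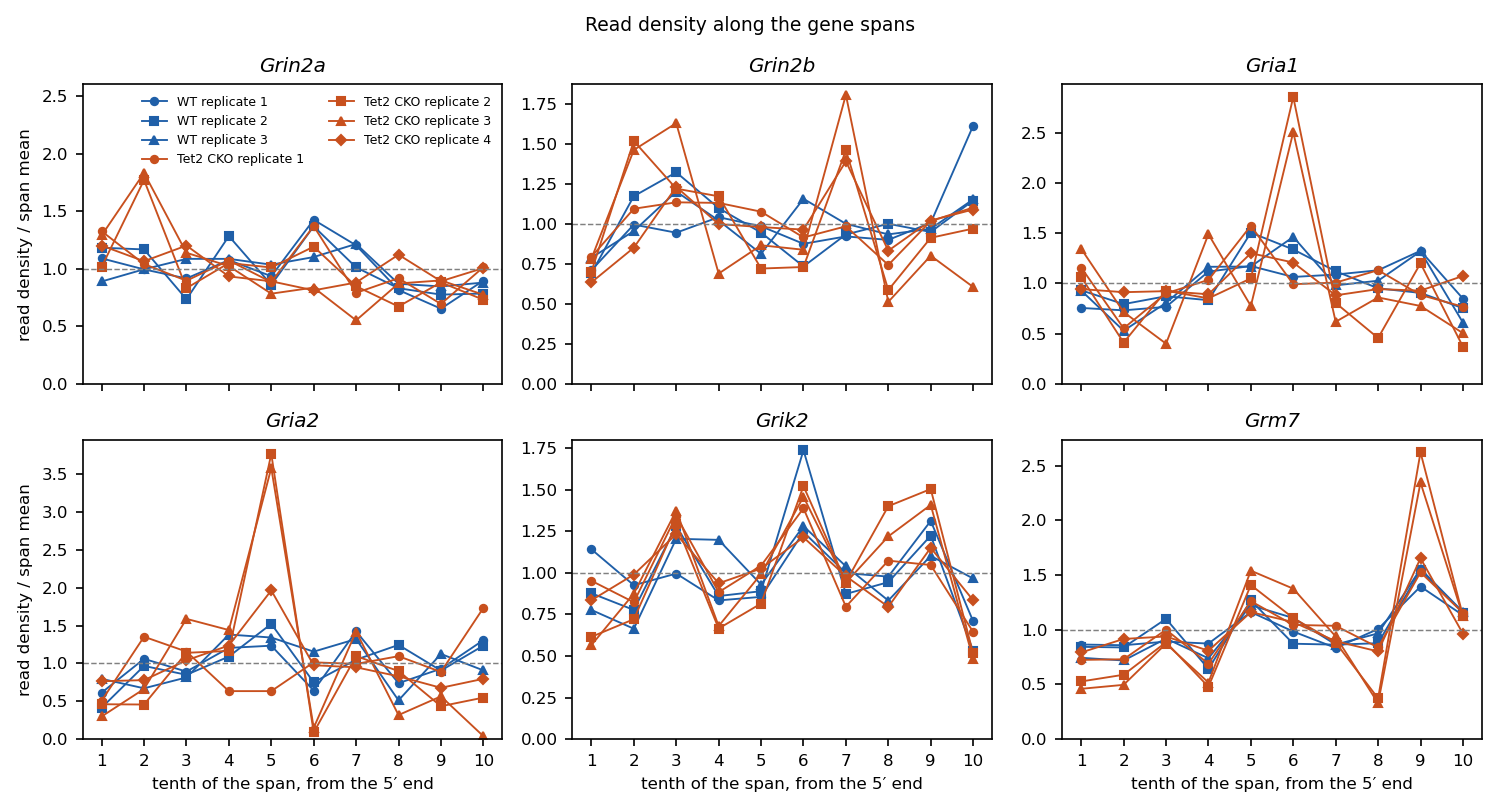
Read density in 10 equal segments of each gene span, numbered from the 5′ end, over the mean density of the span; each line is a library and the dashed line marks the span mean. Grm7 rises at segment 9 in all 7 libraries. Tet2 CKO replicates 2 and 3 lie above the others in at least 1 segment of every gene, such as segment 6 of Gria1, segment 5 of Gria2 and segment 2 of Grin2a. How often this occurs in other regions was not computed.

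How uneven the signal was along a gene was measured as the coefficient of variation of counts among its whole 10 kb windows, after subtracting the variance that counting gives. In WT it was lowest in Gria2, at 0.307 ± 0.0199 (SD, n = 3), and highest in Grm7, at 0.565 ± 0.0646, and Grik2, at 0.561 ± 0.0602. The highest values of every gene were in Tet2 CKO replicates 2 and 3. Grm7 read 0.5004, 0.629 and 0.565 in WT and 0.647, 1.25, 1.26 and 0.641 in Tet2 CKO, with no overlap. All Tet2 CKO libraries lay above all WT libraries in 4% of 500 kb windows. Gria1 read 0.278, 0.372 and 0.359 in WT and 0.343, 1.07, 0.897 and 0.319 in Tet2 CKO, so that replicates 1 and 4 lay among the WT libraries. Gria2 had 0.321, 0.284 and 0.314 in WT against 0.336, 0.710, 0.790 and 0.362 in Tet2 CKO, without overlap but with replicate 1 close to WT replicate 1. Over the 500 kb windows of the genome the median was 0.991 and 1.02 in Tet2 CKO replicates 2 and 3 and 0.440 to 0.508 in the other libraries.

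No gene passed the exact permutation test for this measure (two-sided p from 0.143 for Grm7 to 0.514 for Grin2b), and 0.0591% of the 500 kb windows did. Without Tet2 CKO replicates 2 and 3 the difference between genotypes was 0.0794 in place of 0.385 in Grm7 and 0.0425 in place of 0.243 in Gria2. It was 0.0444 in place of 0.210 in Grin2a and 0.0457 in place of 0.189 in Grik2, and it changed sign in Grin2b, at -0.0906, and Gria1, at -0.00462. The concentration was also seen in the share of a gene's window reads held by its richest windows. The top 10 of the 91 windows of Grm7 held 24.1% to 28.3% of its reads in the other 5 libraries and 46.4% and 46.6% in Tet2 CKO replicates 2 and 3. For Gria1 the top 4 of 31 windows held 19.7% to 21.7% against 38.2% and 37.9%. Fewer bins of each gene held a read in these 2 libraries, from 27.3% to 39.0% over the 6 genes, although Grik2 and Grm7 had their highest levels there. The other 5 libraries had 39.4% to 82.9%, and in Grik2 the nearest values were 39.0% and 39.4%. Of all bins of the genome, 35.6% and 38.4% held a read in Tet2 CKO replicates 2 and 3, against 49.6% to 64.2% in the other 5.

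**Figure D4:**
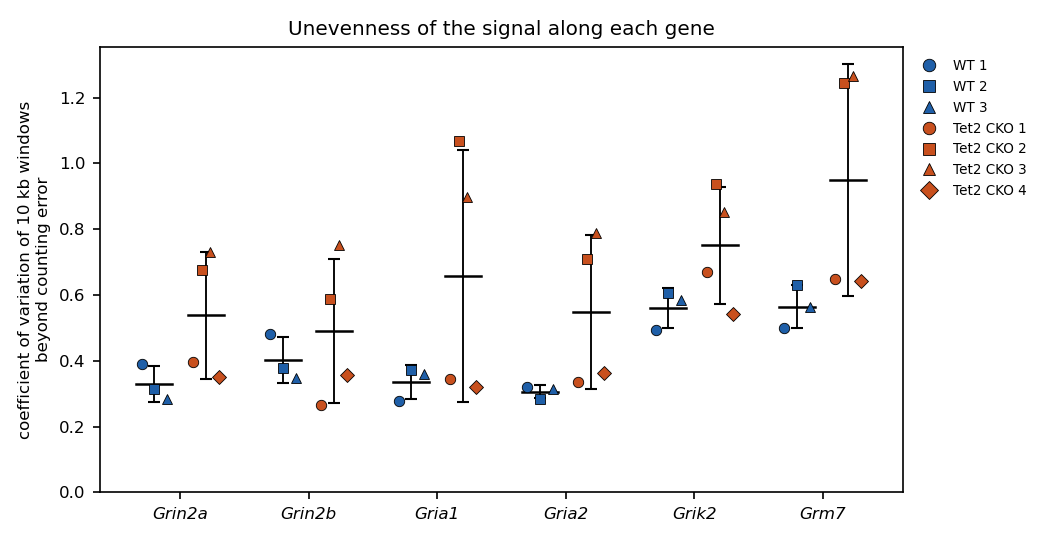
Coefficient of variation of read counts among the whole 10 kb windows of each gene span, beyond counting error, by library; points are libraries, bars the group mean and whiskers the SD. Tet2 CKO replicates 2 and 3 are the highest libraries for every gene, at 0.586 to 1.26, and the other 5 lie between 0.266 and 0.671.

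The profile along the gene was more alike between Tet2 CKO replicates 2 and 3 than between any pair of the other libraries in 4 of the 6 genes. The share of other regions of the genome where this holds was not computed, so it cannot be called particular to these genes. These 2 libraries also had the higher median variation over 500 kb windows, 0.991 and 1.02 against 0.440 to 0.508, and its part in the correlations was not tested. In Grm7 the log2 levels of the 91 windows correlated at r = 0.874 between Tet2 CKO replicates 2 and 3, where the 10 pairs among the other 5 libraries had 0.5004 to 0.729. In Gria2 the values were 0.864 against -0.0380 to 0.674 over 11 windows, in Grik2 0.863 against 0.420 to 0.643 over 68 windows, and in Gria1 0.633 against 0.0501 to 0.492 over 31 windows. In Grin2b the correlation of 0.481 lay inside the range of the other pairs, 0.259 to 0.570, over 45 windows, and so did that of Grin2a, 0.612 against 0.201 to 0.645 over 41 windows. Pairs of 1 of these 2 libraries with 1 of the other 5 had a median r of 0.665 in Grm7 and 0.676 in Grik2. Pairs among the other 5 had 0.613 and 0.569, so in these genes the profile was shared beyond the 2 libraries. In Gria2 the medians were 0.574 and 0.302, but pairs with 1 of the 2 libraries ran from 0.0659 to 0.766. Its highest window stood at 0.895 and 0.897 in the 2 libraries and at 0.124 to 0.451 in the others. In the remaining genes the median of pairs with 1 of the 2 libraries was the lower one. It was 0.151 against 0.492 in Grin2b, 0.340 against 0.483 in Grin2a and 0.308 against 0.353 in Gria1. The windows of a gene share its libraries and their depth, so these are descriptions.

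The genotypes were then compared in single 10 kb windows, of which 287 lie wholly inside the spans and all were tested by edgeR among 253978 windows of the genome. Of the 287, 0 had an adjusted p under 0.05, as did 0% of all windows in either direction. At an unadjusted p under 0.05, 28 were higher in Tet2 CKO, or 9.76% of the 287 and also 9.76% of all windows, and 7 were lower, or 2.44% against 3.72% of all. The higher windows lay mostly in Grik2, with 13 of 68, and Grm7, with 12 of 91, and 2 lay in Gria2 and 1 in Grin2a. The lower windows were 4 of 45 in Grin2b and 1 each in Grin2a, Gria1 and Grm7. All Tet2 CKO libraries lay above all WT libraries in 15 windows, or 5.23% against 4.19% of all windows, and below them in 9, or 3.14% against 5.25%. Without Tet2 CKO replicates 2 and 3, 9 windows were higher and 2 lower at an unadjusted p under 0.05 in edgeR, or 3.14% and 0.697%, where 1.69% and 1.71% of all windows passed. Without WT replicate 1 alone, 2 windows were higher, or 0.697%, where 2.01% of all windows passed. Scaled by library size only, 1 window was higher, or 0.348% against 0.308% of all windows, and with reads outside the high-count bins as library size 14 were, or 4.88% against 5.93%. In each of these fits fewer windows of the genome were higher too.

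The window of Grm7 with the smallest p, chr6:111340001-111350000, lies about 750 kb from the 5′ end of the span. Its level was 0.221, 0.556 and 0.536 in WT and 0.718, 2.20, 2.15 and 0.860 in Tet2 CKO, so all Tet2 CKO libraries were higher and 2 of them by far the most. The log2 fold change was 1.98 ± 0.66 (SE, adjusted p = 0.369 in edgeR), and 0.83 without Tet2 CKO replicates 2 and 3. The lowest window of this gene by p, chr6:111280001-111290000, had 0.149, 0.310 and 0.362 in WT and 0.147, 0.0338, 0.0468 and 0.146 in Tet2 CKO, with a log2 fold change of -1.46 ± 0.55 and the same adjusted p in edgeR, and of -0.93 without those 2 libraries. The window with the highest mean level of Grm7, and of the 287, was chr6:111100001-111110000, at 0.377, 0.738 and 0.884 in WT and 1.10, 2.03, 2.39 and 1.17 in Tet2 CKO (log2 fold change 1.52 ± 0.61, and 0.74 without those 2 libraries).

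In Grik2 the window chr10:49000001-49010000, about 504 kb from the 5′ end, stood at 0.217, 0.230 and 0.301 in WT and at 0.517, 0.869, 0.788 and 0.493 in Tet2 CKO. Here replicates 1 and 4 were also well above WT, and the log2 fold change was 1.57 ± 0.48 (adjusted p = 0.369 in edgeR), and 0.95 without Tet2 CKO replicates 2 and 3. The window of Grik2 with the highest mean level, chr10:49330001-49340000, had 0.394, 0.794 and 1.07 in WT and 1.12, 1.58, 1.59 and 0.881 in Tet2 CKO, which overlapped. Its lowest window by p, chr10:49150001-49160000, reached a log2 fold change of -0.75 ± 0.43, and of -0.90 without those 2 libraries.

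Of the NMDA receptor genes, Grin2a had 1 window in each direction at an unadjusted p under 0.05 in edgeR, and Grin2b had lower windows only. The Grin2b window chr6:135790001-135800000 had levels of 0.411, 0.516 and 0.429 in WT and of 0.224, 0.0760, 0.0624 and 0.243 in Tet2 CKO, or 64 to 121 reads against 8 to 35. Every Tet2 CKO library was below every WT library, and the log2 fold change was -1.53 ± 0.47 (adjusted p = 0.369 in edgeR), and -1.02 without Tet2 CKO replicates 2 and 3. The Grin2b window with the smallest p in the higher direction, chr6:135840001-135850000, overlapped between groups (log2 fold change 0.55 ± 0.49, adjusted p = 0.557 in edgeR). The highest window of Grin2b, chr6:135680001-135690000 near its 3′ end, ran from 1.74 in WT replicate 1 to 0.0624 in Tet2 CKO replicate 3, and overlapped between groups. In Grin2a, chr16:9730001-9740000 stood at 0.784, 0.437 and 0.589 in WT and 0.378, 0.219, 0.117 and 0.416 in Tet2 CKO, with no overlap (log2 fold change -1.07 ± 0.47). It was -0.71 without Tet2 CKO replicates 2 and 3 and -0.37 without WT replicate 1 as well. The higher Grin2a window, chr16:9910001-9920000, had 0.343, 0.254 and 0.502 in WT and 0.571, 0.844, 0.702 and 0.611 in Tet2 CKO (log2 fold change 1.02 ± 0.47, and 0.62 without Tet2 CKO replicates 2 and 3).

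In the AMPA receptor genes, the window chr11:57040001-57050000 of Gria1 had 0.492, 0.373 and 0.583 in WT and 0.324, 0.101, 0.101 and 0.396 in Tet2 CKO. These overlapped through Tet2 CKO replicate 4, and the log2 fold change was -1.04 ± 0.48 (adjusted p = 0.369 in edgeR), and -0.50 without Tet2 CKO replicates 2 and 3. The highest window of Gria1, chr11:56990001-57000000, stood at 0.366, 0.762 and 0.623 in WT and 0.509, 1.08, 0.866 and 0.659 in Tet2 CKO. Gria2 had its smallest p at chr3:80570001-80580000, with 0.190, 0.254 and 0.214 in WT and 0.371, 0.355, 0.648 and 0.326 in Tet2 CKO, a log2 fold change of 1.10 ± 0.46, which was 0.60 without those 2 libraries and 0.72 without Tet2 CKO replicate 3 alone. Its highest window, chr3:80550001-80560000, was at 0.895 and 0.897 in Tet2 CKO replicates 2 and 3 and at 0.124 to 0.451 in the other libraries, with Tet2 CKO replicate 1 the lowest of all.

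Other fits of the windows gave other calls. DESeq2's Wald test with its default trend gave an adjusted p to 12 of the 287 windows and called 5 of them, or 41.7%, higher in Tet2 CKO. Of all 17623 windows with an adjusted p, 29.4% were called higher and 1.16% lower. DESeq2 keeps windows for adjustment by their mean count over all libraries, which high counts in Tet2 CKO replicates 2 and 3 raise. Those 2 libraries were the highest in all 5 windows, so the calls are no independent evidence of a difference. The called windows were 4 of Grm7, among them chr6:111340001-111350000 (adjusted p = 0.0477 in DESeq2), and 1 of Grik2, chr10:48940001-48950000. The latter stood at 0.251, 0.564 and 0.603 in WT and 0.679, 1.43, 1.67 and 0.742 in Tet2 CKO. With a local trend DESeq2 gave an adjusted p to 273 windows and called 0, against 0.0945% of all such windows higher and 0.0125% lower. With the replicate block edgeR called 35 windows higher and 14 lower, where 12.8% and 9.66% of all windows were called. Of the higher ones 19 lay in Grm7 and 13 in Grik2, and of the lower ones 7 lay in Grin2b. Of the 12 windows with the smallest p of a gene in either direction, 8 passed with the block, at adjusted p from 0.00673 to 0.0498 in edgeR: both windows of Grin2a and of Grm7, the lower one of Grin2b and of Gria1, and the higher one of Gria2 and of Grik2. They were picked by p in libraries that the block fit also used, so these calls are no independent evidence of a difference. The windows with the highest mean level of Grin2b, Grik2 and Grm7 passed with the block too, at adjusted p of 0.00673, 0.0287 and 0.00827 in edgeR. These were picked by the mean level over all libraries. That mean is raised by Tet2 CKO replicates 2 and 3 in Grik2 and Grm7 and by WT replicate 1 in Grin2b. Their calls are thus no independent evidence either.

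**Figure D5:**
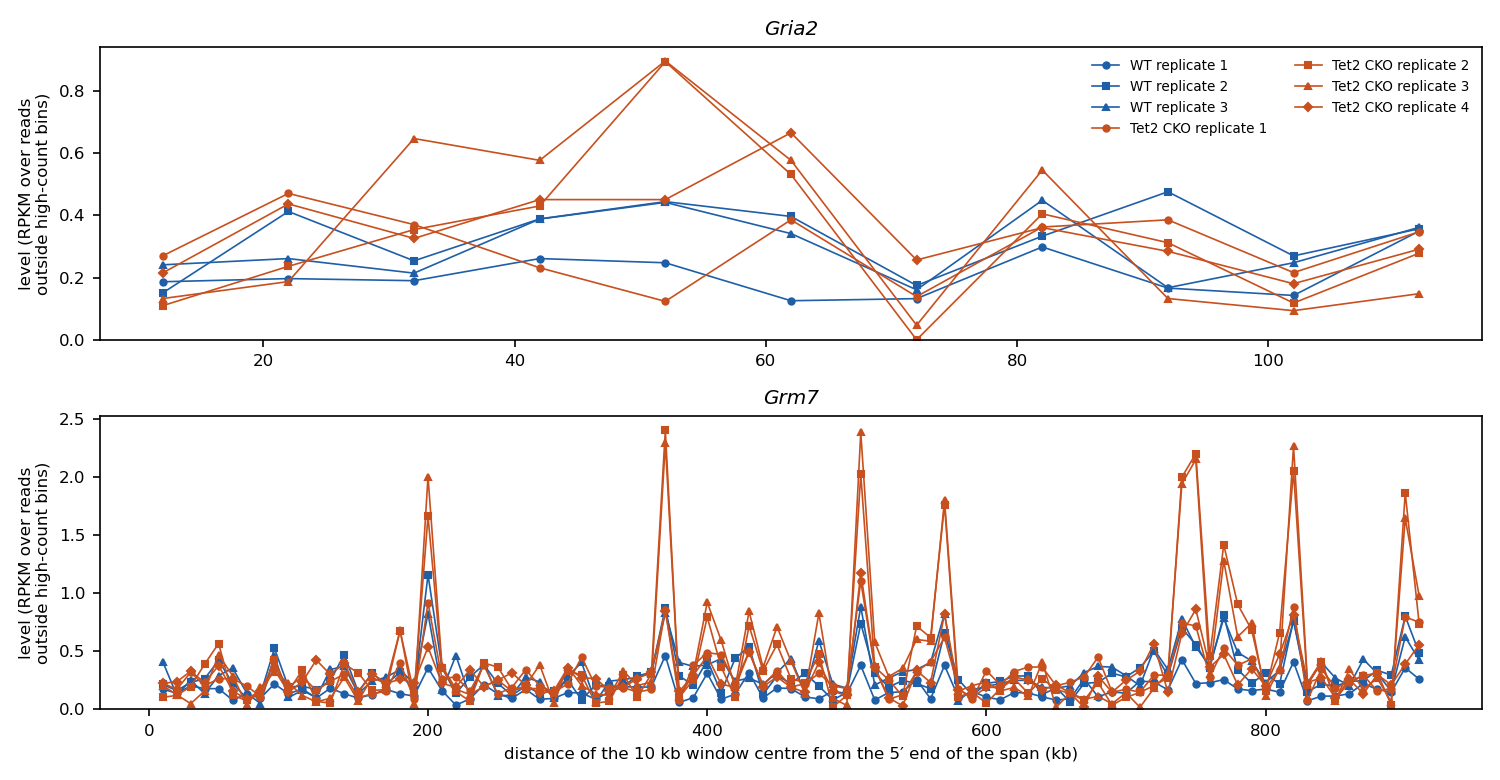
Level of 10 kb windows along Gria2 and Grm7 by distance of the window centre from the 5′ end of the span, in RPKM over reads outside high-count bins; each line is a library. In Grm7, Tet2 CKO replicates 2 and 3 stand at 2.03 and 2.39 in the window about 510 kb from the 5′ end, where the other 5 libraries stand at 0.377 to 1.17.

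At the resolution of single 500 bp bins the counts were low, and 205 of the 5866 bins had a mean of at least 10 reads. The richest bin of the 6 genes by mean count lay in Grm7, at chr6:110965001-110965500, with 37, 49 and 32 reads in WT and 36, 85, 65 and 34 in Tet2 CKO. The richest bin of Gria2, chr3:80572001-80572500, had 28, 8 and 6 reads in WT and 26, 30, 60 and 22 in Tet2 CKO, and lies in the window of this gene named above. Scaled to reads outside the high-count bins, it stood at 0.950, 0.635 and 0.402 RPM in WT and 2.01, 2.53, 4.68 and 1.53 RPM in Tet2 CKO, so every Tet2 CKO library lay above every WT library, as in 6.98% of all bins with a mean of at least 10 reads. That of Grin2b, chr6:135815001-135815500, had 20, 11 and 25 against 16, 25, 32 and 17. That of Grin2a, chr16:9738001-9738500, owed its rank to 93 reads in WT replicate 1, where the other libraries had 2 to 16. The richest bin of Gria1, chr11:56831001-56831500, likewise had 52 reads in WT replicate 1 and 0 to 26 elsewhere. In Grik2, chr10:48997501-48998000 had 6, 22 and 30 reads in WT and 7, 56, 24 and 18 in Tet2 CKO. On the same scale the groups overlapped in the other 5 of these bins. Bins without a read in any library made up 11.9% of Grik2 and 7.80% of Grm7, against 1.41% to 5.74% of the other genes.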

How the data were processed

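Reads of antibody-captured genomic DNA from 7 hippocampus libraries were obtained on an Illumina instrument, per the labels' protocols. The authors deposited raw read counts in 500 bp bins, with no normalization. The submitters' processing notes name Bowtie2, HOMER, DESeq2 and mm9, and their versions and roles are not given in the sources used here. Removal of duplicate or multiply matching reads is not given there either, and would change counts in repeats. The 141713 unplaced bins held 0 reads.

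Bins were assigned to a gene or window by their start. Tests of counts used edgeR 4.0.16 in R 4.3.3 (TMM factors, quasi-likelihood fit on genotype, two-sided, Benjamini-Hochberg over all rows whose mean count was 10 or more), with the SE taken from the F statistic. DESeq2 1.42.0 was an alternative, and adjusted p-values it did not give were left out. Ratios and variation were compared by exact permutation over the 35 ways to form groups of 3 and 4 libraries, in Python 3.11.15 with numpy 2.4.6. Profile correlations used log2(level + 0.05). No molecular identifiers were counted, so intervals cover counting error only. The fits were tested on simulated data first.

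Numbers 1 to 3 occur in both groups' labels. For these numbers, deviations of 226988 windows from the group means (log2 of CPM + 0.5) correlated at 0.574, 0.360 and 0.411, above the criterion of 0.1 for treating numbers as pairs. Unlike numbers correlated too, at 0.532 for WT 1 and Tet2 CKO 4 and 0.418 for WT 3 and Tet2 CKO 2. WT 1 gave -0.588 and -0.575 with Tet2 CKO 2 and 3. Since unlike numbers also met the criterion, it cannot show that the numbers mark pairs, on which the fits with the block rest.

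The genes, spans and tests were chosen with earlier results of these data known. All 6 genes were named. In each, the 10 kb window with the smallest p in each direction, the window with the highest mean level and the bin with the highest mean count were taken, and those that repeat the pattern are not all printed. The windows called by DESeq2 were named after their values were seen. Alternatives covered scaling, filters, test, flank, end and window lengths, the block and libraries left out. The other 20 glutamate receptor genes were planned and not run, since no mm9 annotation was used here.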

Additional observations from a re-analysis of the deposited data

Results flagged for a closer look

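In 1 of the 41 groups of 4 Tet2 CKO values examined, 1 library lay far from the rest. In the Gria2 window chr3:80570001-80580000 the level was 0.648 RPKM in Tet2 CKO replicate 3, with 83 reads, and 0.371, 0.355 and 0.326 in replicates 1, 2 and 4. The gap to the nearest library was 0.862 of the range of the group, above Dixon's 95% critical value for 4 values. Chance flags about 1 in 20 such groups. The richest 500 bp bin of the gene lies in this window and held 60 reads in that library.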

How the results depend on the processing

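With the replicate block, 5 of 6 genes passed in edgeR, at log2 fold changes of -0.57 (Grin2a), -0.90 (Grin2b), -0.73 (Gria1), 0.54 (Grik2) and 0.53 (Grm7), as did 81.8% of all rows. In 10 kb windows the block gave 35 higher and 14 lower at an adjusted p under 0.05, or 12.2% and 4.88% against 12.8% and 9.66% of all windows, and 47 and 37 at an unadjusted one, or 16.4% and 12.9% against 19.1% and 17.4%. In the exact tests the smallest p the block allows is 0.25. The 5′ end difference of Grin2b was 0.29 with the block and also without Tet2 CKO replicate 4 alone, which the block leaves out. The block also called 8 of the 12 windows with the smallest p and the highest windows of Grin2b, Grik2 and Grm7, and changed no other call. Those windows were picked by p or by level in the same libraries, so these calls are no independent evidence.

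Without Tet2 CKO replicates 2 and 3 the fold change turned to 0.074 for Grin2a and 0.062 for Gria1. Without WT replicate 1 as well it was 0.14 for Grin2a, 0.13 for Grin2b, 0.15 for Gria1 and -0.062 for Grm7. The flank difference turned to 0.17 for Grin2a, 0.089 for Grin2b, 0.087 for Gria1, 0.048 for Gria2, 0.090 for Grik2 and -0.047 for Grm7 without the former, and to 0.22, 0.11, 0.12, 0.10, 0.13 and -0.073 without all 3. The difference in variation turned to -0.0906 and -0.0510 for Grin2b and to -0.00462 and -0.0337 for Gria1. The Gria1 window chr11:56990001-57000000 turned from 0.59 to -0.035 and -0.24 in the same settings, and the Gria2 window chr3:80550001-80560000 from 0.85 to -0.43 and -0.61.

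By library size only, the fold change was -0.19 for Gria2, -0.041 for Grm7, -0.12 for that Gria1 window, -0.015 for that Gria2 window and -0.21 for the Grin2a window with the highest mean level, while the median of all 500 kb rows moved from 0.020 to -0.39. Flanks of 100 kb and 1000 kb gave 0.20 and 0.033 for Grin2a. At the 5′ end, 5 kb gave 0.15 for Grin2b, 0.48 for Gria1 and -1.57 for Grm7, which then passed as 3.3% of all 500 kb windows did, and 20 kb gave 0.35 for Gria1. The causes were not tested.

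The count of windows higher at an unadjusted p under 0.05 in edgeR, 28, was 1 by library size only and 14 with reads outside high-count bins as library size, and that of all windows moved alike, from 24791 to 781 and 15054. It was 9 without Tet2 CKO replicates 2 and 3 and 9 without WT replicate 1 too. The count lower, 7, was 4 with reads outside high-count bins and 2 without Tet2 CKO replicates 2 and 3. DESeq2 gave 5 higher after adjustment, among them the Grm7 window with the smallest p. They were 41.7% of the 12 windows with an adjusted p, where 29.4% of all such windows were higher. Leaving out 1 library at a time gave 2 (without WT replicate 1) to 38 higher and 2 (without WT replicate 3 or Tet2 CKO replicate 2) to 14 lower. It moved the fold change of Grin2a between -0.50 and -0.16, of Gria1 between -0.67 and -0.23, of Gria2 between 0.082 and 0.33, of Grik2 between 0.30 and 0.59 and of Grm7 between 0.22 and 0.55. It moved the 5′ end difference of Grin2b between -0.54 and 0.29 and the flank difference of Grm7 between -0.035 and 0.060, and ended or made no call. In the exact tests no pass was possible with a library left out, so those settings cannot show whether a call holds. The smallest p is 0.0667 without 1 WT library and 0.1 without 1 Tet2 CKO library. The remaining values kept their direction and side of the threshold, though not their size. The median window held 25 to 68 reads per library, which limits what single windows can show.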
